A study of Mus musculus with 502 samples.

Results

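The actin cytoskeleton genes described here are 9 abundant genes, taken by their symbols from the 46603 gene rows of the count table, 20568 of which had a read. They are the cytoplasmic actins Actb and Actg1, the actin monomer binding proteins Tmsb4x, Tmsb10 and Pfn1, the filament severing protein Cfl1, and the Arp2/3 complex subunits Arpc1b, Arpc2 and Arpc3. Each gene was followed across 502 single Cd45+ cells of mouse kidney, sorted fresh or after cold storage of the intact organ, and across 5 gates of cells defined by the reads of a marker gene. The study asked how hypothermic preservation affects resident immune cells of the kidney.

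The mice were of the outbred CD1 stock and, according to the methods, about 3 weeks old. No allele or drug treatment is named. The preserved kidneys were kept whole in a transplant preservation solution at 4 °C for 6 h or for 1, 2, 3 or 4 days before dissociation, and fresh kidneys were dissociated directly. By the labels, there were 76 preserved cells at 6 h, and days 1 to 4 gave 75, 78, 82 and 35; the rest were fresh. Per the methods the kidneys of a timepoint came from the same mouse and were pooled, with only part of the kidneys used at days 3 and 4. The labels do not tell animals apart. Each timepoint therefore counts as 1 sample here, and no preserved group could be tested against fresh cells.

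The sample titles also carry a number of the library pool, whose meaning the labels do not give. By that number, 6 h and day 2 were in pool A together with 75 fresh cells, and day 1 and day 3 in pool B together with the other 81. Day 4 was spread over pool B (19 cells), pool C (14) and pool A (2). Only the fresh and day 4 cells were divided between pools, so the pool and the timepoint cannot be told apart for 6 h and for days 1 to 3. Totals on genes ran from 1759 to 1895431 reads per cell, with a median of 695188. The median total per timepoint and pool was 712369 to 962322 for fresh, 6 h and day 2 cells of pool A, and 417385 to 548583 for the cells of pool B. The 18S rRNA gene took a median of 3.92% to 5.79% of the reads in those pool A cells and 8.92% to 9.84% in pool B.

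Actin monomers assemble into filaments that give a cell its cortex and drive its crawling, spreading and engulfing. Thymosins such as Tmsb4x and Tmsb10 hold monomers in reserve, profilin (Pfn1) hands them to growing filament ends, and cofilin (Cfl1) severs old filaments so that subunits are recycled. The Arp2/3 complex starts new branches on existing filaments. Arpc1b and Arpc1a are alternative forms of one of its subunits, and Arpc1b is the form prominent in blood cells. Leukocytes are rich in these proteins because they migrate, form contacts with other cells and take up particles.

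Several of the 9 genes have close relatives, which matters for what a read can be assigned to. The whole coding sequences of the thymosins are shown because the share of Tmsb10 among their reads is compared between the gates. They are from the mouse GENCODE transcripts of GRCm38, with the stop codon, and capitals mark the 40 bases at which the pair differs (70.4% identity):
Tmsb4x: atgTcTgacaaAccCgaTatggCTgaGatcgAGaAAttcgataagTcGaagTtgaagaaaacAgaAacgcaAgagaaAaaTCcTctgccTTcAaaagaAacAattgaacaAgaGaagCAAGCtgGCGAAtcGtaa
Tmsb10: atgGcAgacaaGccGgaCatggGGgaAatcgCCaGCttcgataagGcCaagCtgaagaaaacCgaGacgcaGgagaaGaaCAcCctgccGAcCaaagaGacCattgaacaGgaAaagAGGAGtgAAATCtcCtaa
The longest run the pair shared was 10 bases, far below the read length of 75 bases.

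The actins were much closer to each other. Their coding sequences, 1128 bases each, were 88.7% identical, and the longest identical run was 62 bases. The first 60 bases of each, with the 9 differences in capitals, show where the encoded proteins diverge, at the amino terminus:
Actb: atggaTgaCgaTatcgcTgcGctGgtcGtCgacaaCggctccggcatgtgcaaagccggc
Actg1: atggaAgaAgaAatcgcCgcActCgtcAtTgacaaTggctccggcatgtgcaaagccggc

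Actin genes are known targets of serum response factor, which binds the CArG box. In the RefSeq promoter table (GRCm38.p6), searched on both strands, 1.63% of all promoter windows hold a CArG box. Actg1 held one, 90 bases before the start site of that table on the minus strand, a site inside the GENCODE gene given below, and the other 7 members with an entry held none. The stretch chr11:120348561-120348600 is shown with the box in capitals, as a match of letters only:
Actg1 promoter: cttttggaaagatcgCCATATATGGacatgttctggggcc

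The genes lie apart from one another in the genome (GRCm38, GENCODE annotation, whole gene, on the strand given). Actb spans chr5:142903115-142906754 (minus), Actg1 chr11:120345690-120348542 (minus), Tmsb4x chrX:167207093-167209315 (minus), Tmsb10 chr6:72957347-72958748 (minus) and Pfn1 chr11:70651850-70654644 (minus). Cfl1 spans chr19:5490455-5495201 (plus), Arpc1b chr5:145114215-145130705 (plus), Arpc2 chr1:74236084-74268209 (plus) and Arpc3 chr5:122391878-122414184 (plus). All are protein-coding, and reads were counted over their exons without regard to strand. Of the windows of 75 bases along the main transcript, 58.4% of those of Actg1 also occurred in another gene, mostly in processed pseudogenes such as Gm12715. This share was 46.6% for Tmsb10 (Gm9844, which had no read, and Gm3788), 34.4% for Arpc1b (the overlapping gene Pdap1, and Gm5637), 16.5% for Cfl1 (the overlapping gene Snx32, and Gm6180) and 2.6% for Actb. It was 0% for Tmsb4x, Pfn1, Arpc2 and Arpc3. The counts of Actg1, Tmsb10, Arpc1b and Cfl1 are therefore uncertain by the reads that could not be assigned, a fraction that the counts do not show.

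Most of the 9 genes were among the most abundant of the table, and Tmsb10 and Arpc3 were less so. By summed reads Actb ranked 3, Tmsb4x 8, Actg1 20, Pfn1 39, Arpc1b 72, Cfl1 74, Tmsb10 509 and Arpc3 2889 of the genes with a read. Together they held a median of 1.89% of a cell's reads, from 0.00183% to 9.82%. Actb had a read in 99.4% of the 502 cells, Tmsb4x in 99%, Pfn1 in 97.8%, Cfl1 in 97.2%, Actg1 in 90.4%, Tmsb10 and Arpc2 in 85.9% each, and Arpc1b in 82.9%. Arpc3 stood apart, with a read in 120 of 502 cells (23.9%). Per length of the main transcript over all cells, as RPKM (reads scaled by transcript length and by the total reads), the order was Tmsb4x 5716, Actb 5498, Pfn1 1845, Actg1 1325, Arpc2 606, Tmsb10 509, Cfl1 438, Arpc1b 336 and Arpc3 81.5. Tmsb4x, whose transcript is short, thus moved to the first place on this scale. The whole length was used, with no allowance for windows that also occur in other genes. The places of Actg1, Tmsb10, Arpc1b and Cfl1 are therefore uncertain.

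Cells were assigned to gates by at least 10 reads of a marker gene. Cd3e, a T cell receptor subunit, opened a gate of 21.1% of the 502 cells, Cd79a, a B cell receptor subunit, one of 14.7% (74 cells), and C1qb, a complement component of tissue macrophages, one of 24.9%. Of the cells without these markers, 75 had Csf1r, the receptor of monocytes and macrophages, and 44 had more reads of S100a8, a protein abundant in neutrophils. Of the remainder, 3 cells with more than 1 of the first 3 markers and 75 without any marker were left out of the gates. Each gate held the markers of its own list. Each list includes the gene that opened the gate, so 1 marker of each was fixed by the gating. All 6 T cell markers were read in at least 25% of Cd3e+ cells, as were all 6 B cell markers in Cd79a+ cells, all 6 C1q macrophage markers in C1qb+ cells, 6 of 7 monocyte and dendritic markers in Csf1r+ cells and all 6 neutrophil markers in S100a8+ cells. Some markers of other lists also reached this share. In S100a8+ cells these were 4 of the 7 monocyte and dendritic markers, 1 T cell and 1 C1q macrophage marker, in Csf1r+ cells 2 C1q macrophage and 1 neutrophil marker, and in C1qb+ cells 2 monocyte and dendritic and 1 platelet marker. In Cd3e+ cells 1 NK and 1 endothelial marker did, and in Cd79a+ cells 1 T cell and 1 endothelial marker. Their part in the differences between gates was not tested. The gates were uneven between the pools. Fresh cells of pool A held 30 Csf1r+, 20 S100a8+, 9 Cd3e+, 8 C1qb+ and no Cd79a+ cells, and those of pool B held 4, 0, 44, 8 and 16.

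Across the gates the 9 genes took a median of 3.19% of the reads in S100a8+ cells, 2.57% in Csf1r+, 1.95% in Cd3e+, 1.45% in Cd79a+ and 1.44% in C1qb+ cells. These medians pool cells of all timepoints, and their order mixes gate and pool: the fresh cells of pool A were at 2.88% and those of pool B at 1.51%, S100a8+ cells were mostly of pool A and C1qb+ cells mostly of pool B. Among single cells these shares overlapped, from 1.20% to 5.84% in S100a8+ cells and from 0.295% to 3.8% in C1qb+ cells. Values per cell are given in rpm, the reads of a gene scaled by the cell's total reads on genes, and values of a group in CPM, the same scale for reads summed over its cells. Reads carry no molecular identifiers, so intervals on counts and shares cover counting error only.

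**Figure D1:**
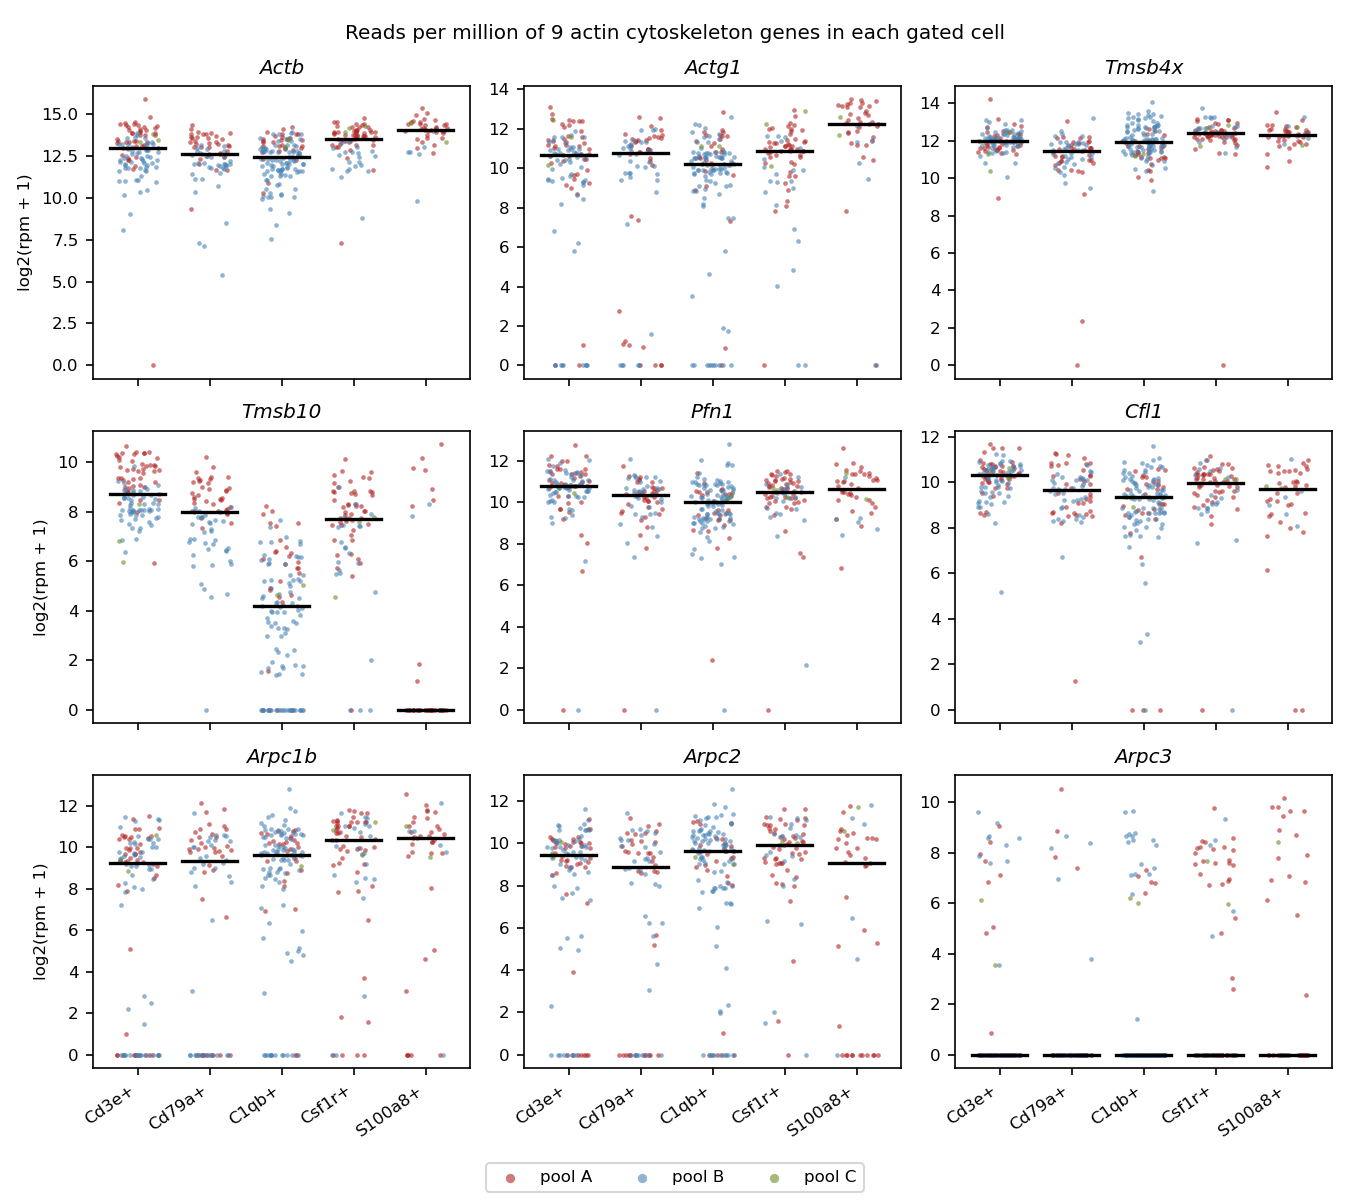
Levels (rpm) of each of the 9 genes in every gated cell, as log2(rpm + 1) on the vertical axis, by gate on the horizontal axis; each point is a cell, coloured by library pool, and the line is the median over the gate. Tmsb10 ran from a median of 419 rpm in Cd3e+ cells to 0 in S100a8+ cells, while Arpc3 had a median of 0 in each gate.

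The actins were highest in the S100a8+ cells. The median of Actb was 16746 rpm in S100a8+ cells (891 to 41407 over 44 cells), 11461 in Csf1r+ (154.1 to 27755), 8019 in Cd3e+ (0 to 60485), 6174 in Cd79a+ (41.8 to 20493) and 5518 in C1qb+ cells (186.4 to 19403). The median of Actg1 was 4831 rpm in S100a8+ cells (0 to 11604) and between 1205 and 1877 in the other gates. Both genes thus had their highest median in the same gate, although single cells of every gate overlapped. The order of the lower gates was not settled within timepoints. By summed CPM, Actb in Cd3e+ cells was above that in C1qb+ cells in 4 of 5 timepoints, and in Cd79a+ cells in 2 of 5. The fitted log2 differences of Actb from C1qb+ cells were -0.16 (SE 0.23) for Cd3e+ and -0.38 (SE 0.23) for Cd79a+ cells, neither called.

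Summed over the cells of a gate and timepoint, Actb in S100a8+ cells was at 17449 CPM fresh, 19750 at 6 h and 6800 at day 1, the 3 timepoints with at least 5 such cells. At the same timepoints it was at 7490, 15974 and 5111 CPM in Cd3e+ cells, 5457, 9614 and 3295 in Cd79a+ cells, 8516, 10985 and 4891 in C1qb+ cells, and 14499, 14823 and 5175 in Csf1r+ cells. Within each timepoint the S100a8+ value was the highest of the 5, and over the timepoints the gates overlapped because day 1 was low throughout. Gates were compared within timepoints by edgeR's quasi-likelihood test on these sums (24 sums, 12274 genes, Benjamini-Hochberg adjustment over all genes). Actb was lower than in S100a8+ cells by a fitted log2 difference of -1.37 (SE 0.27, adjusted p = 0.00573) in Cd3e+, -1.59 (SE 0.28, adjusted p = 0.00153) in Cd79a+ and -1.21 (SE 0.27, adjusted p = 0.0349) in C1qb+ cells. For Csf1r+ cells the difference of -0.96 (SE 0.27) did not pass (adjusted p = 0.315). At the fresh timepoint all 16 Cd79a+ cells were of pool B and all 20 S100a8+ cells of pool A, pools whose fresh cells differed in Actb by a log2 of 1.45, so the pool and the gate cannot be told apart there. With timepoint and pool as the sample unit, the contrast of Cd79a+ with S100a8+ cells could not be tested, and Actb was at -1.13 (adjusted p = 0.00661) for Cd3e+ and -1.11 (adjusted p = 0.0213) for C1qb+ cells.

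Actg1 in S100a8+ cells was at 7200 CPM fresh, 4900 at 6 h and 1763 at day 1. In Cd3e+ cells it was at 1883, 2047 and 917 CPM and in Cd79a+ cells at 1809, 1419 and 1427. The fitted log2 difference was -2.06 (SE 0.44, adjusted p = 0.0107) for Cd3e+ and -2.05 (SE 0.45, adjusted p = 0.0120) for Cd79a+ against S100a8+ cells in the same test. The differences of -1.72 for C1qb+ (adjusted p = 0.0996) and -1.73 for Csf1r+ cells (adjusted p = 0.186) were of similar size and did not pass. The fresh sums mix pools here as well: Actg1 in fresh Cd3e+ cells was at 3797 CPM in pool A (9 cells) and 1415 in pool B (44 cells), while all fresh S100a8+ cells were of pool A and all fresh Cd79a+ cells of pool B. With timepoint and pool as the sample unit the Cd3e+ difference was -1.83 (adjusted p = 0.0108), and the Cd79a+ difference could not be tested.

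The background of these calls differed between contrasts. The test called 2% of all genes for Cd3e+ against S100a8+ cells (2 of the 9 members, Actb and Actg1), 1.85% for Cd79a+ against S100a8+ (3 of 9, with Tmsb4x), 0.587% for C1qb+ against S100a8+ (1 of 9) and 0.122% for Csf1r+ against S100a8+ (0 of 9, with 2 at an unadjusted p under 0.05 and 1 called by DESeq2). In the contrasts with S100a8+ cells the middle of all genes was off 0, with a median log2 difference of 1.17, 1.03, 2.07 and 0.87 in the order given (1.81, 1.496, 2.39 and 1.33 with library totals), against -1.02, -1.52, -1.10 and -0.62 for the 9 members. With library totals in place of trimmed means the Actb difference of Cd3e+ from S100a8+ cells shrank to -0.69 (adjusted p = 0.0810) and that of Actg1 to -1.34 (adjusted p = 0.0545), both in the same direction. Of all called genes, 16.7% were higher in Cd3e+ than in S100a8+ cells and 19.4% in Cd79a+ than in S100a8+ cells, against 33.6% and 31.4% with library totals. The S100a8+ gate was measured at 3 timepoints only, and all fresh S100a8+ cells were from pool A. Without the fresh timepoint, all 5 of these Actb and Actg1 calls against S100a8+ cells were lost, with adjusted p from 0.0576 to 0.326, and without 6 h 3 of them were. The Actb call for C1qb+ cells was also lost without day 2, without a filter on low counts and without the timepoint block (adjusted p from 0.0697 to 0.128).

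Of the thymosins, Tmsb4x had its highest medians in the same gates as Actb, Csf1r+ and S100a8+, and Tmsb10 had its highest in Cd3e+ cells. The medians of Tmsb4x lay closer together than those of the actins. Its median was 5403 rpm in Csf1r+ cells (0 to 13923), 5122 in S100a8+ (1526 to 11670), 4112 in Cd3e+ (483 to 18938), 3863 in C1qb+ (643 to 16845) and 2820 in Cd79a+ cells (0 to 9358). In Cd79a+ cells, the B cell gate, it was at 3232 CPM fresh, 1758 at 6 h and 2484, 2989 and 3691 from day 1 to day 3. In Csf1r+ cells it was at 5235, 5373, 5399, 5641 and 8425 CPM at the same timepoints, so that the lowest Csf1r+ sum was above the highest Cd79a+ sum. The difference was a log2 of -1.10 (SE 0.26, adjusted p = 0.0176, edgeR, lower in 5 of 5 timepoints), in a contrast in which 2.2% of all genes and 1 of 9 members were called. Leaving out 6 h, day 1, day 3 or the fresh cells each took this call away (adjusted p up to 0.134), as did opening the gates at 1 read or at 50 (adjusted p up to 0.197). Against S100a8+ cells, with 5017, 5473 and 5278 CPM fresh, at 6 h and at day 1, the Cd79a+ difference was -1.57 (SE 0.30, adjusted p = 0.00374), and it was lost without 6 h (adjusted p = 0.103).

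Tmsb10, the second thymosin, showed the widest spread between gates. Its median was 419 rpm in Cd3e+ cells (60.1 to 1621), 252.8 in Cd79a+ (0 to 1202), 210 in Csf1r+ (0 to 1134), 17.2 in C1qb+ (0 to 304) and 0 in S100a8+ cells (0 to 1710). It had a read in 100% of Cd3e+ cells, in 73 of 74 Cd79a+, 71 of 75 Csf1r+ and 98 C1qb+ cells (78.4%). In S100a8+ cells it had a read in 11 of 44 (25%, exact Clopper-Pearson interval 13.2% to 40.3%), and in 23.3% after each cell was thinned to 100000 reads, beside 62.9% of C1qb+ cells thinned in the same way. Tmsb10 was thus nearly always detected in the lymphocyte gates and mostly not in the neutrophil gate, where 1 cell held 31.2% of its reads.

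Summed by timepoint, Tmsb10 in Cd3e+ cells was at 378 CPM fresh, 822 at 6 h and 260.9, 1029 and 182.2 from day 1 to day 3. In C1qb+ cells it was at 79.3, 50.8, 25.02, 56.4 and 15.9 CPM at the same timepoints and at 65.2 at day 4. The lowest Cd3e+ sum was thus above the highest C1qb+ sum. The log2 difference was 3.17 (SE 0.85, adjusted p = 0.0361, edgeR, higher in 5 of 5 timepoints), and Tmsb10 was the 1 member of 9 called in a contrast with 3.64% of all genes called. The call rested on all timepoints but day 4: leaving out any other took it past the threshold, with adjusted p up to 0.220 and log2 differences between 2.88 and 3.45. It was also lost without a filter on low counts and with gates opened at 1 read (adjusted p up to 0.0729).

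The other differences of Tmsb10 did not pass in this test, while DESeq2 called 4 of its 10 contrasts. Those were the contrasts of Cd3e+, Cd79a+, Csf1r+ and S100a8+ cells with C1qb+ cells. Cd79a+ cells, at 163.6, 335, 99.3, 483 and 165.3 CPM from fresh to day 3, were above C1qb+ cells in 5 of 5 timepoints (log2 2.24, SE 0.82, adjusted p = 0.144). Csf1r+ cells, at 302, 310, 86.99, 245.6 and 210.9 CPM, were also above C1qb+ cells in 5 of 5 (log2 of C1qb+ against Csf1r+ -2.27, SE 0.82, adjusted p = 0.398). Cd3e+ and Cd79a+ cells differed by 0.93 (SE 0.78, adjusted p = 0.842). For the S100a8+ sums of 219.4, 104.99 and 43.8 CPM, which a few cells carried, no difference in Tmsb10 passed by edgeR.

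**Figure D2:**
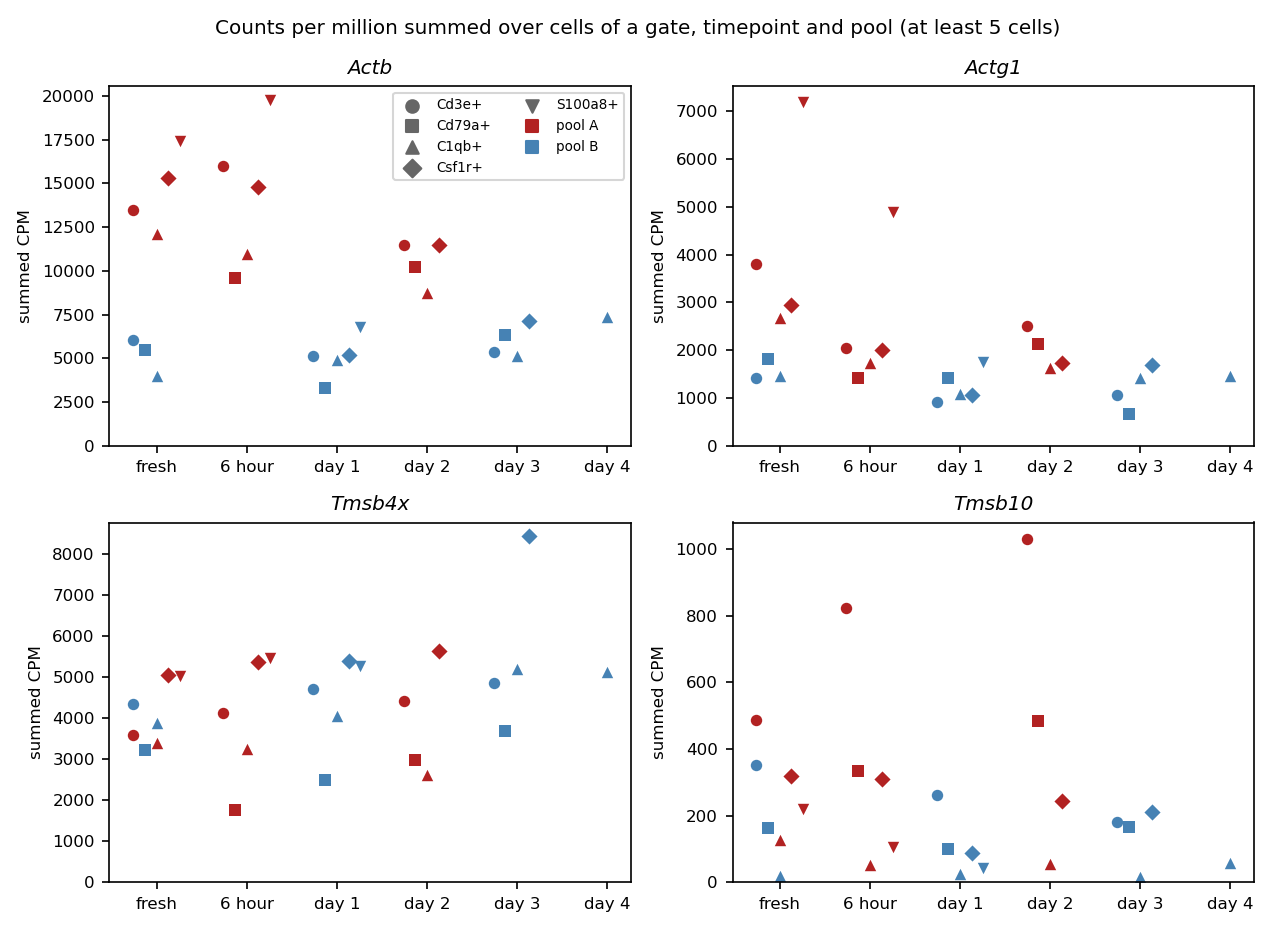
CPM of Actb, Actg1, Tmsb4x and Tmsb10, summed over the cells of a gate, timepoint and pool with at least 5 cells; marker shape gives the gate and colour the pool, and axes start at 0. Each Actb point of pool A lies above each Actb point of pool B, while for Tmsb4x the pools are mixed and for Tmsb10 the Cd3e+ points lead at most timepoints.

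For profilin and cofilin no difference between gates passed the test. The median of Pfn1 was 1768 rpm in Cd3e+ cells, 1586 in S100a8+, 1437 in Csf1r+, 1298 in Cd79a+ and 1014 in C1qb+ cells. Its sums in Cd3e+ cells, at 1931, 2329, 1538, 2109 and 1668 CPM from fresh to day 3, were above those of C1qb+ cells, at 937, 1485, 874, 707 and 1190, in 5 of 5 timepoints. The fitted difference of 0.57 (SE 0.41) did not pass (adjusted p = 0.591, edgeR). Cfl1 had the same order at its ends, with medians of 1278 rpm in Cd3e+ and 651 in C1qb+ cells. Its sums were 1269, 1592, 972, 1368 and 1084 CPM in Cd3e+ and 806, 761, 613, 526.4 and 811 in C1qb+ cells, a log2 difference of 0.49 (SE 0.44, adjusted p = 0.725). Neither gene was called in any of the 10 contrasts, and neither had an unadjusted p under 0.05 in any; DESeq2 called 0 of 10 for Pfn1 and 0 of 10 for Cfl1.

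The Arp2/3 subunits showed different levels among themselves. Arpc1b had a median of 1400 rpm in S100a8+, 1297 in Csf1r+, 794 in C1qb+, 637 in Cd79a+ and 605 in Cd3e+ cells. Its sums in Csf1r+ cells, at 1400, 1737, 1374, 1443 and 1267 CPM from fresh to day 3, were above those of Cd3e+ cells, at 619, 937, 856, 858 and 840, at each timepoint. The log2 difference of -0.99 for Cd3e+ against Csf1r+ cells (SE 0.41) did not pass (adjusted p = 0.234, edgeR, 2.49% of all genes called). For Arpc1b 4 of 10 contrasts had an unadjusted p under 0.05 and none was called, while DESeq2 called 4. Arpc2 had medians from 480 rpm in Cd79a+ to 965 in Csf1r+ cells and Arpc3 a median of 0 in every gate. Neither was called in any contrast or had an unadjusted p under 0.05, and DESeq2 called 0 for Arpc2 and 0 for Arpc3.

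Arpc3 was read in 42.7% of Csf1r+ and 38.6% of S100a8+ cells, and in 19.8% of Cd3e+, 19.2% of C1qb+ and 12.2% of Cd79a+ cells. With each cell thinned to 100000 reads these shares were 43.2%, 37.2%, 19.05%, 18.5% and 12.2%, so depth left their order as it was. The shares pool all timepoints, and their order mixes gate and pool. Arpc3 was read in 48% of fresh cells of pool A and 17.3% of pool B, and Csf1r+ and S100a8+ cells were mostly of pool A. At day 1 the order did not hold: sums were 2.70 CPM in Csf1r+ and 0 in S100a8+ cells, beside 38.8 in C1qb+ and 45.3 in Cd3e+ cells, each from few cells. In the Cd79a+ gate 1 cell held 53.8% of the Arpc3 reads, and the sums of several gates and timepoints had none. The other 2 members of the complex described here had reads in no fewer than 70.3% of cells in any gate.

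**Figure D3:**
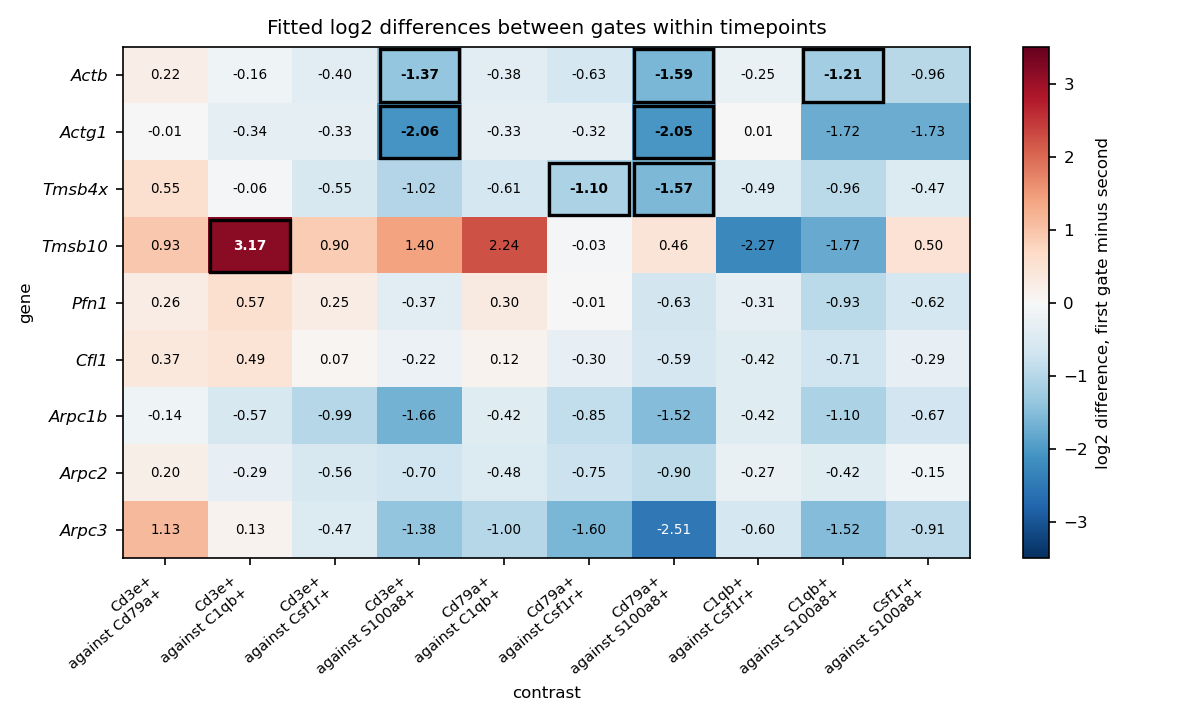
Fitted log2 differences of the 9 genes (rows) in the 10 gate contrasts (columns), first gate minus second, within timepoints; boxes mark adjusted p under 0.05. Of the 8 boxed values, 6 lie in columns against S100a8+ cells, and the largest boxed value is the 3.17 of Tmsb10 in Cd3e+ against C1qb+ cells.

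In all, 8 of the 90 values of a member in a contrast were called, and 23 had an unadjusted p under 0.05. No member was called for Cd3e+ against Cd79a+ (0.872% of all genes called, 1 member at an unadjusted p under 0.05 and 0 called by DESeq2), Cd3e+ against Csf1r+ (2.49%, 2 unadjusted, 1 by DESeq2), Cd79a+ against C1qb+ (3.14%, 2 unadjusted, 1 by DESeq2) or C1qb+ against Csf1r+ cells (0.0896%, 1 unadjusted, 1 by DESeq2). Simulated counts with this layout, in which 50 abundant genes were changed by each fold between Cd3e+ and C1qb+ cells, gave back 0% of 2-fold, 12% of 4-fold, 24% of 8-fold and 50% of 16-fold changes. The changed genes had a median dispersion of 0.654, and these shares hold for such genes and not for members with less spread. Fitted differences and plain CPM could also part: Actb in Cd3e+ against C1qb+ cells had a fitted log2 of -0.16 with mean sums of 9082 and 7656 CPM.

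Ratios between relatives within a cell do not depend on the cell's total. Tmsb10 made up 10.8% ± 6.77 (SD, n = 5 timepoints) of the reads of both thymosins in Cd3e+ cells, 9.45% ± 8.05 (n = 5) in Cd79a+, 3.01% ± 1.92 (n = 4) in Csf1r+, 1.02% ± 0.662 (n = 6) in C1qb+ and 0% at each of 3 timepoints in S100a8+ cells, as medians over cells. In Cd3e+ cells it was 8.37% fresh, 17.8% at 6 h and 6.06%, 18.1% and 3.60% from day 1 to day 3. It was higher than in C1qb+ cells by 9.76 points in 5 of 5 timepoints (exact permutation test, two-sided, p = 0.0625, the smallest that 5 timepoints allow, adjusted p = 0.417 over 30 tests). The share separated the 2 gates at each timepoint, within a test that could not reach the threshold.

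The Tmsb10 share also moved with the pool inside a gate. In fresh Cd3e+ cells it was 10.2% in pool A (9 cells) and 7.96% in pool B (44 cells), and in fresh C1qb+ cells 3.41% in pool A and 0.50% in pool B, with 8 cells in each. The pool A cells were the higher in both gates. Of the Cd3e+ timepoints, 6 h and day 2, the 2 with the highest shares, were of pool A.

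Actb made up 88.3% ± 5.08 (SD, n = 5) of the reads of both actins in Csf1r+ cells, 86.5% ± 4.42 (n = 5) in Cd3e+, 82.8% ± 4.35 (n = 6) in C1qb+, 80.9% ± 5.005 (n = 5) in Cd79a+ and 77.6% ± 8.42 (n = 3) in S100a8+ cells. In fresh S100a8+ cells it was 67.9%, and at 6 h and day 1 it was 82.8% and 82.1%. No difference between gates could pass, since the exact permutation test cannot go below p = 0.0625 with 5 timepoints or p = 0.25 with 3, before adjustment. Arpc1b against Arpc1a had a median of 100% in each gate, that is, the median cell had reads of Arpc1b alone.

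**Figure D4:**
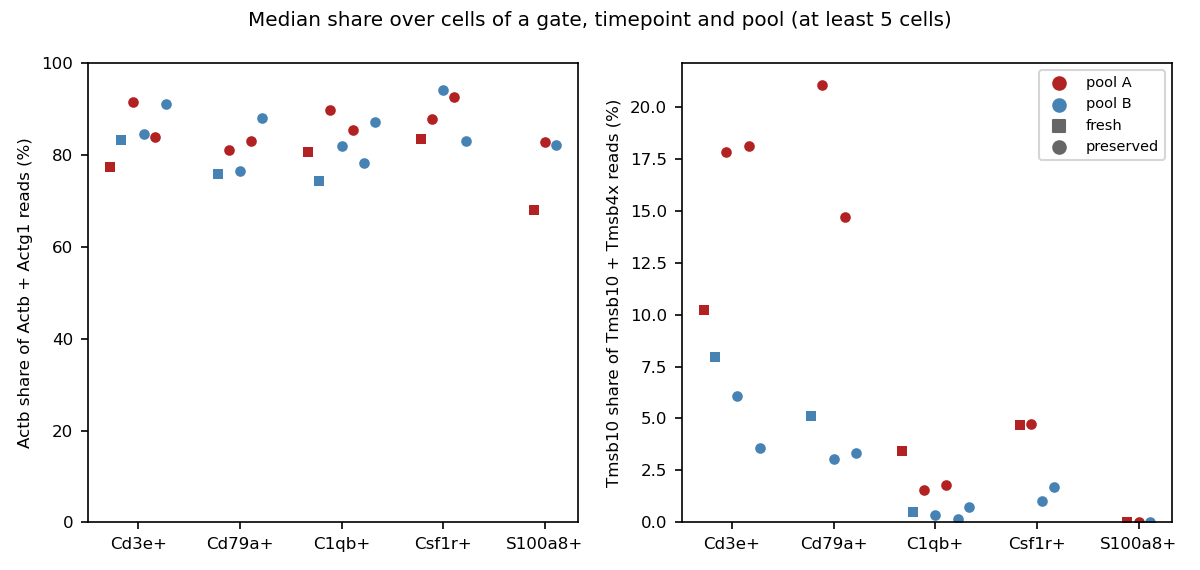
Median over cells of the share of Actb among the reads of both actins (left, %) and of Tmsb10 among the reads of both thymosins (right, %), by gate; each point is a gate, timepoint and pool with at least 5 cells, squares are fresh and circles preserved cells, and colour gives the pool. The Tmsb10 share is above 5% in lymphocyte gates only, and its highest points, from 14.7% to 21%, are preserved pool A cells.

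Other genes of the pathway were examined as fixed lists of 81 further genes, of which 73 were tested. At most 3 of the 73 were called in a contrast, 4.11% in Cd79a+ against C1qb+ cells beside 3.14% of all genes. Rac2, a small GTPase of blood cells that signals to the actin machinery, was higher in Cd3e+ cells than in C1qb+ (log2 1.82, adjusted p = 0.0132) and Csf1r+ cells (1.63, adjusted p = 0.0350), and lower in C1qb+ than in S100a8+ cells (-2.36, adjusted p = 0.0232). Lcp1, the filament bundling protein of leukocytes, was lower in Cd79a+ than in C1qb+ cells (-2.21, adjusted p = 0.00215) and in S100a8+ cells (-3.54, adjusted p = 7.2e-05), and lower in Cd3e+ than in S100a8+ cells (-2.28, adjusted p = 0.00601). Ezr, which links filaments to the membrane, was higher in Cd79a+ than in C1qb+ cells (4.48, adjusted p = 0.0122). Compared with S100a8+ cells, Cap1, an actin monomer recycling protein, was lower in Cd79a+ (-2.78, adjusted p = 0.0177) and Vim, an intermediate filament protein, in C1qb+ cells (-4.63, adjusted p = 0.0280). Of the whole Arp2/3 list, which holds the members Arpc1b, Arpc2 and Arpc3, all 9 genes were tested and none was called in any contrast by edgeR. Over the 10 contrasts 5 of its 90 values had an unadjusted p under 0.05 and DESeq2 called 4, and Arpc1b alone has 4 of each, as given above.

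Preserved cells were set beside fresh cells of the same pool, as ratios of summed CPM with no test. Actb, the most abundant member, was at 15394 CPM in fresh and 15558 in 6 h cells of pool A, and at 10618 at day 2. In pool B it was at 5654 CPM fresh and 5072, 5442 and 6584 CPM at days 1, 3 and 4. The log2 ratios to fresh cells were 0.02 at 6 h and -0.54 at day 2 in pool A, and -0.16, -0.06 and 0.22 at days 1, 3 and 4 in pool B. None of these differed by 2-fold, whereas the fresh cells of the pools themselves differed by a log2 of 1.45. Whether the fresh cells of both pools came from 1 mouse is not clear from the sources used here, so a difference between pools and one between animals cannot be told apart.

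That difference was the widest but one among the members. Fresh pool A against fresh pool B gave 1.52 for Actg1, 1.45 for Actb, 0.97 for Arpc1b, 0.94 for Arpc3, 0.36 for Tmsb10, 0.17 for Tmsb4x, 0.09 for Cfl1 and Arpc2 and -0.10 for Pfn1. Thus 2 of 9 members were at least 2-fold higher in pool A, beside 19.1% of all genes with at least 50 reads in both sums. Both actins were higher in pool A inside gates as well, though not always by 2-fold: in Cd3e+ cells (9 against 44) the log2 was 1.16 for Actb and 1.42 for Actg1, and in C1qb+ cells (8 against 8) it was 1.59 and 0.87. Over all gates and timepoints, the sums of Actb ran from 8729 to 19750 CPM in pool A and from 3295 to 7390 in pool B without overlap. The fresh pools also differed in gates (40% Csf1r+ cells in pool A and 4.94% in pool B), in 18S share (medians 5.79% and 9.84%) and in mitochondrial share (2.02% and 3.88%), and their part in these differences was not tested.

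Over the 9 genes the median log2 ratio to fresh cells of the same pool was 0.02 at 6 h and -0.43 at day 2 in pool A, -0.16 at day 1 and -0.06 at day 3 in pool B, and 0.07 at day 4 over the 8 members with enough reads. The medians of all genes were 0.16, 0.23, -0.08, -0.08 and 0.25 in the same order. At 6 h and day 2 no member differed by 2-fold, beside 36.7% and 45.5% of all genes. At day 1 Tmsb10 and Arpc3 were more than 2-fold lower (21% of all genes lower, 41% in either direction), and at day 3 and day 4 Tmsb10 was, alone among the members with at least 50 reads in both sums (22.4% and 22.8% lower, 43.5% and 55.9% in either direction). Arpc3, which had no read at day 4 of pool B, is outside this count. The gates compared were not the same, since 54.3% of fresh cells of pool B were Cd3e+ and 52.6% of the day 4 cells were C1qb+. Within C1qb+ cells of pool B the median of the members was 0.07, 0.42 and 0.79 at days 1, 3 and 4, beside -0.37, -0.38 and 0.37 for all genes. At day 4, 2 of 8 members were at least 2-fold higher. The upper quartile of the 2510 genes compared there was a log2 of 1.25, itself above 2-fold, so such increases were common among all genes. Over all cells of a pool, most of the 9 genes stayed within 2-fold of fresh cells while a large part of all genes, most of them with far fewer reads, did not.

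**Figure D5:**
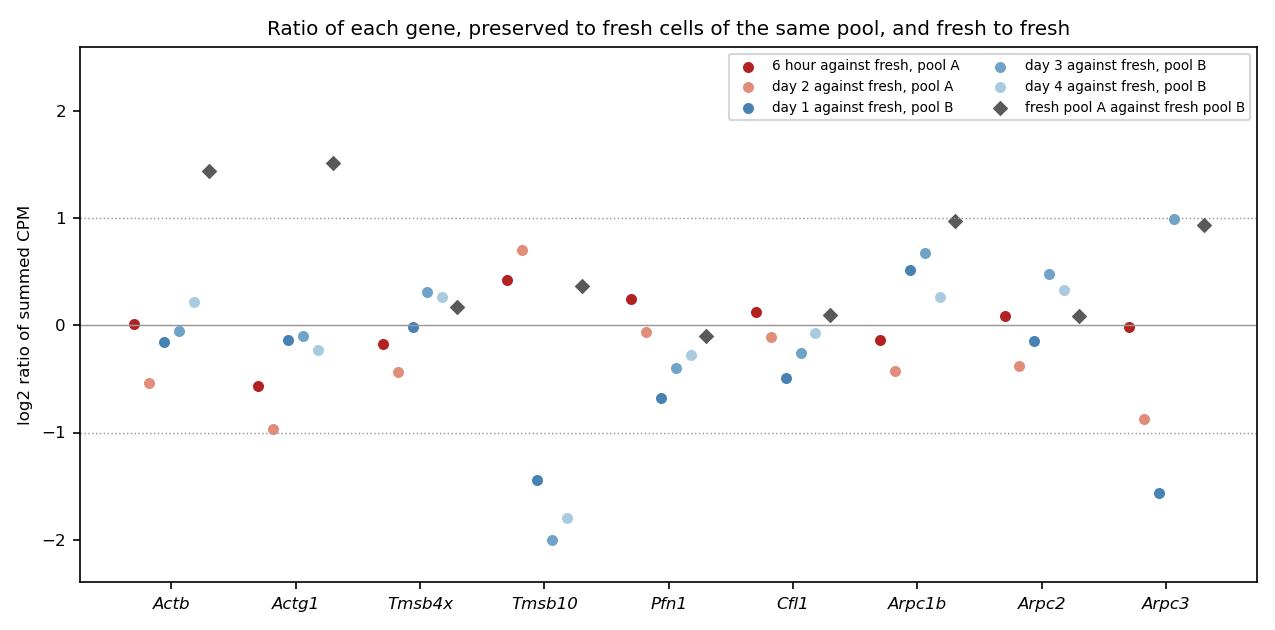
Log2 ratio of summed CPM of each gene, for preserved against fresh cells of the same pool (circles) and for fresh pool A against fresh pool B (diamonds); dotted lines mark 2-fold, and Arpc3 at day 4, with no read, is not drawn. Tmsb10 lies above 0 in the 2 comparisons of pool A and at -1.44 to -2.004 in the 3 of pool B.

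Among the members with enough reads at every timepoint, Tmsb10 had the largest ratio in size. In pool B it was at 242.3 CPM fresh, 89.3 at day 1, 60.4 at day 3 and 69.5 at day 4, log2 ratios of -1.44, -2.004 and -1.80. In pool A it was at 312 CPM fresh, 419 at 6 h and 510 at day 2, log2 ratios of 0.43 and 0.71. The median cell was at 234.6 rpm in fresh pool B and at 55.6, 17.8 and 60.5 rpm in the day 1, day 3 and day 4 cells of that pool. The preserved cells thus had less Tmsb10 in one pool and more in the other.

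The gates of these cells had shifted as well. Of the pool B cells, 54.3% were Cd3e+ and 9.88% C1qb+ when fresh, against 8.54% and 65.9% at day 3, and these are the gates with the most and nearly the least Tmsb10. Within Cd3e+ cells of pool B the log2 ratio was -0.43 at day 1 and -0.95 at day 3 (7 cells each, against 44), and none of the 7 day 3 cells was above the fresh median of 320 rpm. Within C1qb+ cells of pool B it was 0.48 at day 1, -0.17 at day 3 and 1.73 at day 4, and within Cd79a+ cells -0.72 at day 1 and 0.01 at day 3. Within each of these gates the ratio at days 1 and 3 was thus smaller in size than over all cells, and at day 4 the 10 C1qb+ cells were above the 8 fresh ones. In pool A it was 0.76 and 1.08 in Cd3e+ cells at 6 h and day 2, -1.34 and -1.19 in C1qb+ cells, -0.04 and -0.37 in Csf1r+ cells and -1.06 in S100a8+ cells at 6 h. Several of these groups hold 5 to 9 cells, and their ratios carry the spread of few cells.

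By summed CPM, Arpc1b was lower in preserved than in fresh cells of pool A and higher in those of pool B, with no test. It was at 1315 CPM fresh, 1200 at 6 h and 977 at day 2 in pool A, and at 670 CPM fresh and 957, 1069 and 805 at days 1, 3 and 4 in pool B. The direction depended on the measure at day 4, where the mean over cells gave a log2 ratio of -0.26 and the median cell was at 0 against 521 rpm fresh, and at 6 h, where the median over cells gave 0.11. Within gates the log2 ratios at 6 h and day 2 in pool A were 0.81 and 0.68 in Cd3e+, -0.18 and -0.27 in C1qb+ and 0.25 and -0.02 in Csf1r+ cells, and -0.28 at 6 h in S100a8+ cells. At days 1 and 3 in pool B they were 0.42 and 0.39 in Cd3e+, -0.20 and 0.77 in Cd79a+ and 0.44 and 0.82 in C1qb+ cells, with 0.70 at day 4 in the last. The gates thus did not share a direction. Arpc3 in pool B was at 52.5 CPM fresh, 17.8 at day 1 and 104.6 at day 3. It was read in 14 of 81 fresh, 6 of 75 day 1 and 23 of 82 day 3 cells, and 1 cell held 49.7% of the day 1 reads. The 19 cells of day 4 had no read, which allows up to 0.361 CPM by 3 counts, for counting error only. By cells, the exact Clopper-Pearson interval for 0 of 19 reaches 17.6%, beside 17.3% of fresh cells with a read, so 19 cells cannot settle a fall. By summed CPM the direction of Arpc3 changed between neighbouring timepoints of one pool, on reads of few cells.

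For the other members no ratio of summed CPM over all cells of a pool reached 2-fold. Log2 ratios at 6 h, day 2, day 1, day 3 and day 4 were -0.17, -0.44, -0.01, 0.31 and 0.26 for Tmsb4x, 0.24, -0.06, -0.68, -0.40 and -0.28 for Pfn1, and 0.12, -0.10, -0.49, -0.26 and -0.07 for Cfl1. For Arpc2 they were 0.09, -0.38, -0.14, 0.48 and 0.33, and the median over cells turned the day 4 value to -0.30 and the day 1 value to 0.04. Actg1 was below its fresh level in each of the 5 comparisons, at -0.57, -0.96, -0.13, -0.10 and -0.23, and by the median over cells at -0.61 at day 3 and -1.48 at day 4. Within Cd79a+ cells of pool B it was at 664 CPM at day 3 (5 cells) against 1809 fresh (16 cells), a log2 of -1.45. Of those 5 cells, 1 held 58.1% of the Actg1 reads and 2 had none. No direction over time was common to the 9 genes.

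Between single cells the members varied together only weakly. Within a gate and pool the median Spearman correlation over pairs of members was 0.10 to 0.29, over 21 to 93 cells that share a library pool. The highest pair was Actb with Pfn1 in Cd79a+ cells of pool B (0.69, 37 cells), and the same pair was the highest in Cd3e+ cells of pool A and in Csf1r+ cells of both pools. Among the 612 genes read in at least 50% of the 494 cells with at least 100000 reads, those whose levels followed the mean of the 9 genes most closely were Gm12715 (Spearman 0.53), Gm5637 (0.53), Gm6180 (0.51), Gm8399 (0.47), Gapdh (0.45), Coro1a (0.44), Myl6 (0.43), Gm4735 (0.43), Cotl1 (0.43) and Eno1 (0.43). Gm12715 and Gm8399 share windows of 75 bases with Actg1, Gm6180 with Cfl1 and Gm5637 with Arpc1b, so their reads may be reads of those members. Coro1a and Cotl1 are actin binding proteins, Myl6 is a myosin light chain, and Gapdh and Eno1 are enzymes of glycolysis. These correlations are over cells of all timepoints and pools and carry no test.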

How the data were processed

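Reads of single Cd45+ cells, sequenced after a protocol adapted from SmartSeq2, were trimmed to 75 bp, cleared of duplicates with picard, aligned to GRCm38 with STAR and counted with HTSeq (intersection-strict, strand ignored) by the authors, who kept cells with at least 1000 reads. Versions of these tools are not named in the labels or the methods. What the authors deposited is 1 table of raw read counts per gene, not normalized, for 502 cells. Of its 46700 rows, the 96 ERCC rows (0.000185% of counts) and the vector row (0.139%) were left out, and the 18S gene (6.60% of gene counts) was kept.

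Counts were divided by a cell's total on genes to give rpm, and log values are log2(rpm + 1). Counts summed over the cells of a gate and timepoint, with at least 5 cells, were compared within timepoints by edgeR's quasi-likelihood test with trimmed-mean normalization, filterByExpr, timepoint as a block and 14 residual degrees of freedom, with an adjusted p under 0.05 as a call. Contrasts needed 3 timepoints in common. Since the kidneys of a timepoint came from 1 mouse, days 3 and 4 may share 1 and the fresh cells of both pools may be of 1 mouse or more, p-values measure the spread between these samples only. Preserved and fresh cells were compared by ratios of sums, with no test, and 2-fold was a call among genes that reached 50 counts on each side; comparisons within gates with 5 to 9 cells on a side were added after the data were seen. Paralog shares needed 20 reads on the pair. Doublets were not called. Windows of 75 bases were matched to GENCODE transcripts of GRCm38.

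The 9 members, the gates and the gene lists were chosen with earlier results of these data known. Genes named are the members, the gate genes, the called gene of each pathway list with the largest increase and decrease per contrast, and the 10 genes most like the mean of the members; 1 gene that this rule names is not reported here. The study's tests over cells were not repeated. Python 3.11.15, numpy 2.4.6, pandas 2.3.3, scipy 1.17.1, matplotlib 3.10.9, R 4.3.3, edgeR 4.0.16, limma 3.58.1 and DESeq2 1.42.0 were used. On simulated data (12106 genes, Cd3e+ against C1qb+ cells) 3 of 11906 unchanged genes were called. Alternatives covered normalization, filters, gate thresholds, cell filters, the sample unit, the block, each timepoint left out and DESeq2.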

Additional observations from a re-analysis of the deposited data

Results flagged for a closer look

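In Csf1r+ cells Tmsb4x at day 3 (8425 CPM, 6 cells) stood apart from the other 4 timepoints (5235 to 5641). Arpc2 at 6 h (1397 CPM) stood apart in the same gate from the others (940 to 1062), and Arpc1b at day 3 (1129 CPM) in C1qb+ cells from the others (872 to 959). These were 3 of 44 groups examined for a value far from the rest, and chance flags about 1 in 20. The groups held 4 to 6 values each, either sums or median paralog shares, and all 3 flagged values were sums.

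For Tmsb10 each preserved group of pool A was above its fresh cells (log2 0.43 at 6 h and 0.71 at day 2) and each of pool B below (-1.44 at day 1, -2.004 at day 3 and -1.80 at day 4). For Arpc1b each of pool A was below (-0.13 and -0.43) and each of pool B above (0.52, 0.68 and 0.27) by summed CPM, while the mean over cells put day 4 at -0.26 and the median over cells put 6 h at 0.11. These differences between pools were not tested. The timepoints differ between the pools, as do the gates of the cells, and their part was not tested.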

How the results depend on the processing

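Against the 8 calls of a member in a gate contrast, DESeq2 made 18 and edgeR with DESeq2 size factors 14. With at least 10 cells in a sum, 1 of the 10 contrasts could be tested, one with no call to lose, and gave 0. With cells of at least 1000 genes, 6 could be tested and gave 3 calls, among them both earlier calls within those 6. Without the timepoint as replicate block there were 9, so the pairing of gates by timepoint changed few calls: Actb in C1qb+ against S100a8+ cells was lost, and no replicate number in the labels pairs cells. With timepoint and pool as the sample unit, 5 of the 8 calls could be tested and all 5 remained, and the calls in Cd79a+ against S100a8+ cells could not be tested. Leaving out each timepoint gave 1 (without fresh) to 8 calls (without day 4). Of 323 values of a member's difference under another setting, 274 kept their direction and side of the threshold, 27 lost a call, 22 gained one and none of the called values changed sign. Paralog shares from summed reads in place of the median cell moved for Arpc1b (90.9% in C1qb+, 90.8% in Cd3e+, 91% in Cd79a+, 94.3% in Csf1r+ and 94.7% in S100a8+ cells) and for Tmsb10 in S100a8+ cells (2.30%). With the gate, timepoint and pool as the unit, chosen after seeing the data, Arpc1b in C1qb+ cells was at 99.2%. Of 303 alternatives of a member's ratio to fresh cells, 21 moved by at least 0.5 on the log2 scale, most of them with all fresh cells in place of those of the same pool. Then Actb was at -1.09 at day 1 and -0.99 at day 3, and Arpc1b at -0.08 and 0.08. The median ratios moved by less in all 40. The cause of these changes was not tested. Arpc3 had no read in most cells, and 1 cell held 53.8% of its reads in the Cd79a+ gate.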
